A study of Arabidopsis thaliana with 4 samples.

Results

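The plastid-encoded RNA polymerase genes are the 4 chloroplast genes rpoA, rpoB, rpoC1 and rpoC2. They were taken by name from the chloroplast annotation of the Arabidopsis thaliana TAIR10.1 assembly, 4 of 129 annotated loci and 4 of 85 protein-coding loci, with both exons and the intron of rpoC1 read apart. The data are RNA immunoprecipitation sequencing (RIP-seq), in which an antibody pulls down a tagged protein and the RNA recovered with it is sequenced. Of the libraries, 2 were immunoprecipitations with an HA-specific antibody from the chloroplast stroma of a transgenic line carrying dPPRrbcL, a protein designed around rbcL, the gene of the large Rubisco subunit. The other 2 were immunoprecipitations with the same antibody from WT (Col-0) stroma, and the plants of both groups were 2 weeks old. The promoter of the transgene, the number of independent lines and whether plants were pooled are not given in the sources used here. The labels do not say that replicates came from separate plants or extracts, so p-values measure only the spread between these libraries.

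The plastid-encoded polymerase (PEP) is the bacterial-type RNA polymerase of chloroplasts and reads most photosynthesis genes. Its core has an alpha subunit encoded by rpoA, a beta subunit encoded by rpoB, and a beta-prime part that is split in plants into the products of rpoC1 and rpoC2, while the sigma factors that direct it to promoters are encoded in the nucleus. The beta and beta-prime subunits form the catalytic centre, and alpha subunits hold the core together. In Arabidopsis, rpoB, rpoC1 and rpoC2 are usually described as 1 transcription unit read by the nucleus-encoded polymerase (NEP), and rpoA as the last gene of a unit of ribosomal protein genes.

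All 4 genes lie on the minus strand. Of the cluster, rpoB (ArthCp014, Pltd:23111-26329) comes first in the direction of transcription, with 3219 coding nt for 1072 codons. It is followed by rpoC1 (ArthCp013, Pltd:20251-23084), with 2043 coding nt in an exon 1 of 432 nt (22653 to 23084) and an exon 2 of 1611 nt (20251 to 21861), parted by an intron of 791 nt (21862 to 22652). The cluster ends with rpoC2 (ArthCp012, Pltd:15938-20068), the longest of the set with 4131 coding nt. rpoA (ArthCp055, Pltd:77901-78890) stands elsewhere, with 990 coding nt. The 4 genes differ in base composition, with a GC content of 33.4% in rpoA, 36.7% in rpoC2, 37.5% in rpoC1 and 38.6% in rpoB.

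The sequences below show both borders of the rpoC1 intron, whose recovery is described further on, with 20 nt on each side, 5′ to 3′ on the minus strand, exon in capitals and intron in lower case. The intron opens with gtgtg, the usual start of a group II intron, the class to which most chloroplast introns belong.
exon 1 to intron (Pltd:22633-22672): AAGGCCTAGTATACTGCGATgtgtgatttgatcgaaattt
intron to exon 2 (Pltd:21842-21881): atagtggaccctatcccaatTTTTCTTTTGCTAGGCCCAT

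The libraries differed in composition between the groups. rRNA genes took 90.9% ± 0.79 of the coverage in dPPRrbcL and 98.6% ± 0.25 in WT (SD, n = 2 each), and protein-coding exons took 5.47% ± 0.52 in dPPRrbcL and 0.455% ± 0.136 in WT. Over protein-coding exons other than rbcL, dPPRrbcL replicates 1 and 2 averaged 979 and 900 reads per nucleotide, and WT replicates 1 and 2 averaged 81.0 and 101. This mean scaled each library here, so a scaled level is a gene's mean exon coverage as a percentage of it. The designed target separated the groups as the labels do: rbcL had 24398 and 22189 reads per nucleotide in dPPRrbcL, against 675 and 777 in WT. No library of the RNA before immunoprecipitation is used here, so more of an RNA in the stroma, or more stroma, cannot be told apart from a larger share recovered by the antibody.

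The RNAs of all 4 polymerase genes were sparse in the immunoprecipitates of both groups. dPPRrbcL replicates 1 and 2 had a mean coverage, in reads per nucleotide, of 189 and 212 over rpoA, 169 and 161 over rpoB, 245 and 223 over rpoC1 exons, and 119 and 102 over rpoC2. WT replicates 1 and 2 had 10.9 and 12.8 over rpoA, 8.89 and 7.65 over rpoB, 9.77 and 9.16 over rpoC1 exons, and 5.03 and 5.45 over rpoC2. Each gene was thus higher in both dPPRrbcL libraries than in both WT libraries, as were protein-coding exons at large, and neither WT library gave much depth on them. In WT replicates 1 and 2, 11.6% and 7.67% of rpoC2 positions had no read, while every position of the 4 genes was covered in both dPPRrbcL libraries.

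**Figure D1:**
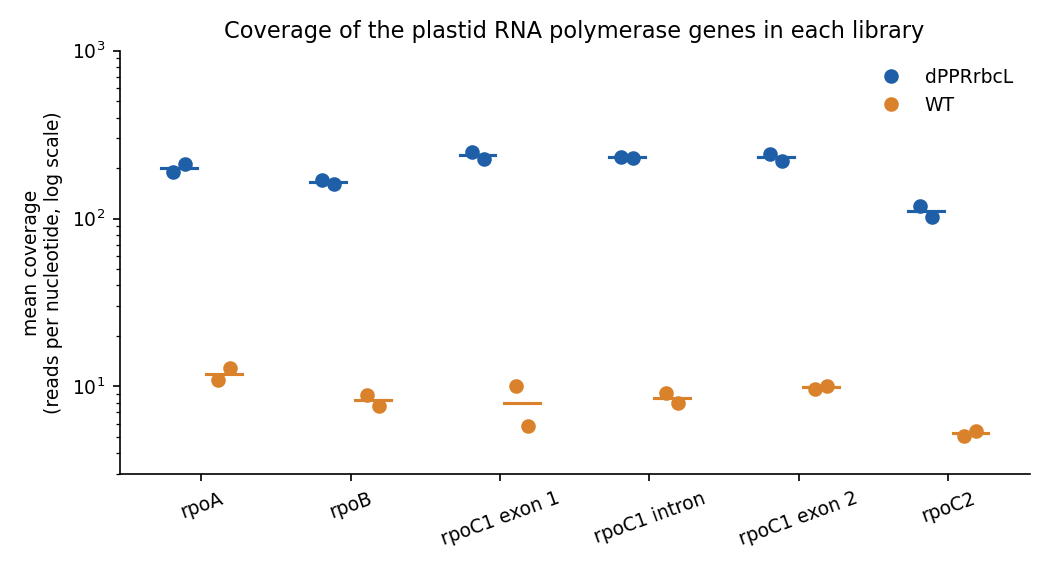
Mean coverage in reads per nucleotide (log scale) of rpoA, rpoB, the rpoC1 exons and intron, and rpoC2, with a point for each library, dPPRrbcL left of WT, and a bar at the group mean. All dPPRrbcL points lie above 100 reads per nucleotide and all WT points at or below 12.8.

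Scaled to the other protein-coding exons, the order of the genes differed between the groups. In dPPRrbcL the level was 24.9% ± 0.21 of the mean for rpoC1, 21.4% ± 3.0 for rpoA, 17.6% ± 0.46 for rpoB and 11.7% ± 0.54 for rpoC2 (SD, n = 2). In WT it was 13.1% ± 0.53 for rpoA, 10.6% ± 2.1 for rpoC1, 9.27% ± 2.41 for rpoB and 5.80% ± 0.58 for rpoC2. Both libraries of a group had the same order. In WT the ranges of rpoC1 and rpoB overlapped, and in dPPRrbcL rpoA was the loosest, with 19.3% in replicate 1, near rpoB, and 23.5% in replicate 2, near rpoC1. rpoC2 was the lowest in all 4 libraries. The levels lay in the lower part of the 85 protein-coding genes, at ranks 59 (rpoC1), 60 (rpoA), 64 (rpoB) and 74 (rpoC2) in dPPRrbcL and at ranks 62 (rpoC1), 57 (rpoA), 64 (rpoB) and 70 (rpoC2) in WT.

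Ratios within a library do not depend on the scaling. The coverage of rpoA over that of rpoC1 was 0.772 and 0.953 in dPPRrbcL, against 1.12 and 1.40 in WT. The alpha-subunit RNA was thus below the rpoC1 RNA in both dPPRrbcL libraries and above it in both WT libraries. The ratio of rpoC1 to the mean of its cluster neighbours rpoB and rpoC2 was 1.70 and 1.69 in dPPRrbcL, against 1.40 and 1.40 in WT, also without overlap. With 2 libraries against 2, each of these differences had an exact two-sided permutation p of 0.333, the smallest that the design allows. Of the other pairs of members, rpoA over rpoC2, rpoB over rpoC1 and rpoC1 over rpoC2 also had no overlap of the groups. The groups overlapped for rpoA over rpoB and for rpoB over rpoC2. How often pairs of other genes have no overlap is not given here, so these ratios are descriptions. The 4 genes together held 1.58% ± 0.02 of the protein-coding coverage in dPPRrbcL and 1.00% ± 0.16 in WT (exact permutation p = 0.333), although they make up 13.4% of its length. With rbcL left out of the denominator, these shares were 2.32% ± 0.02 in dPPRrbcL and 1.16% ± 0.20 in WT.

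All 4 genes rose in dPPRrbcL relative to the mean coverage of protein-coding exons other than rbcL, a mean to which highly covered genes add most. The largest value was that of rpoC1. The test was limma over 111 genes on log2(scaled coverage + a pseudocount of 1% of the scaling mean), with Benjamini-Hochberg adjustment at 0.05. Genes entered the test with a mean coverage over all libraries of at least 10. rpoB, rpoC1 and rpoC2 were below that minimum in both WT libraries and so entered through their dPPRrbcL coverage. The log2 change, dPPRrbcL minus WT, was 1.17 (SE 0.16, limma adjusted p = 0.00566) for rpoC1 and 0.91 (SE 0.12, limma adjusted p = 0.00485) for rpoC2. It was 0.87 (SE 0.20, limma adjusted p = 0.0209) for rpoB and 0.67 (SE 0.14, limma adjusted p = 0.0160) for rpoA. Calls were common in this comparison: 55 genes (49.5%) were called higher and 23 (20.7%) lower in dPPRrbcL, so 4 of 4 members called is to be read against a background near an even share. The change of the median gene was 0.61, and the members ranked 30 (rpoC1), 42 (rpoC2), 44 (rpoB) and 51 (rpoA) of 111. For comparison, rbcL had a log2 change of 1.63 with an SE of 0.10 (limma adjusted p = 0.00157) and ranked 17.

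**Figure D2:**
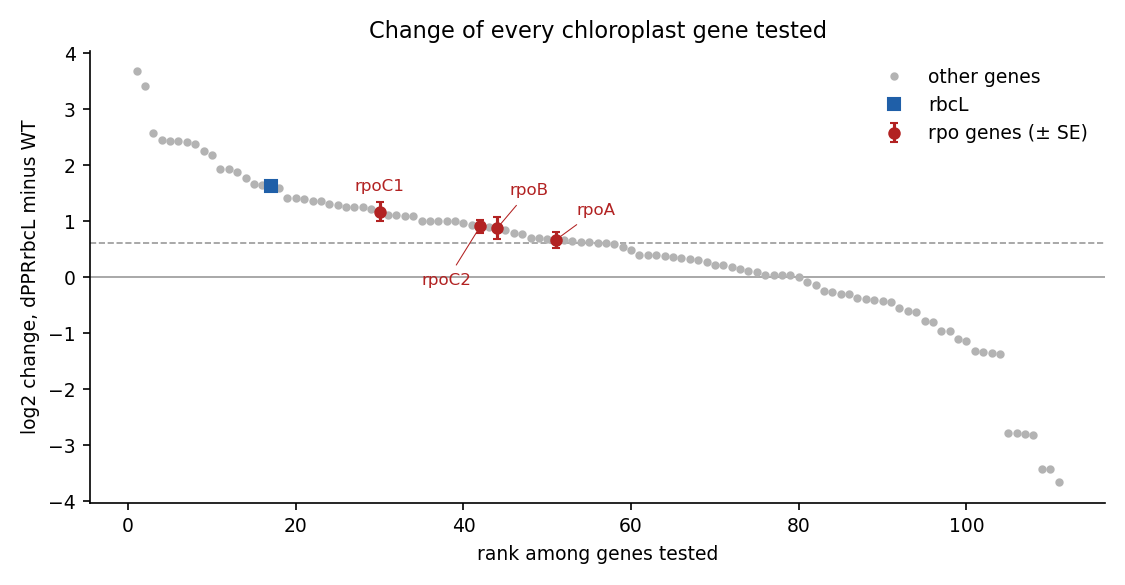
Log2 change, dPPRrbcL minus WT, of the 111 genes tested, ordered by rank. Red points are the 4 polymerase genes with their SE, the blue square is rbcL, grey points are the other genes and the dashed line is the median gene at 0.61; the members lie between ranks 30 and 51, with rpoA close to the median.

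Relative to the median gene, the log2 change was higher by 0.56 for rpoC1, 0.30 for rpoC2, 0.27 for rpoB and 0.06 for rpoA. That median spans rRNA and tRNA genes too. Over the 84 protein-coding genes tested the median was 0.674, against 0.666 for rpoA, so rpoA did not rise above its own class. The distance from the median gene also depended on the scaling and its pseudocount. Scaled to the library total, whose pseudocount of 104 to 129 reads per nucleotide exceeds the WT coverage of every member, the median gene changed by 1.51 and the members stood below it, by 0.10 for rpoC1, 0.27 for rpoA, 0.39 for rpoB and 0.66 for rpoC2, while 97.3% of genes were called higher. Without a pseudocount the difference from the median gene does not depend on the scaling, and it was 0.64 for rpoC1, 0.41 for rpoC2, 0.34 for rpoB and 0.10 for rpoA. Scaled by the median ratio over genes, where 30.6% of genes were called higher, rpoC1 (log2 change 0.73, limma adjusted p = 0.0223) and rpoC2 (0.49, limma adjusted p = 0.0244) kept their calls, and rpoB (0.43, limma adjusted p = 0.115) and rpoA (0.22, limma adjusted p = 0.167) did not. Leaving out either dPPRrbcL library ended the members' calls, and leaving out either WT library kept them. A fit with 1 library in a group takes its spread from the other group alone, however. Over genes, the SD of the log2 ratio between replicates was 0.17 in dPPRrbcL and 0.57 in WT. The calls kept without a WT library thus rest on the tighter pair.

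Within rpoC1, the exons and the intron had like coverage in dPPRrbcL, and exon 1 was the loosest piece in WT. Exon 1 had 249 and 227 reads per nucleotide in dPPRrbcL, against 10.1 and 5.78 in WT. The intron had 233 and 229.8 reads per nucleotide in dPPRrbcL, against 9.10 and 7.92 in WT. Both WT values of the intron lay below the minimum coverage of the test, which it passed through dPPRrbcL. Exon 2 had 244 and 221 reads per nucleotide in dPPRrbcL, against 9.68 and 10.1 in WT. All 3 pieces rose: in limma over 261 exons, introns and spacers, the log2 change was 1.47 for exon 1 (SE 0.36, limma adjusted p = 0.0241), 1.30 for the intron (SE 0.20, limma adjusted p = 0.00663) and 1.11 for exon 2 (SE 0.15, limma adjusted p = 0.00444). In that comparison 43.3% of segments were called higher and 21.1% lower, and the median segment changed by 0.52. Exon 1 lost its call without either dPPRrbcL library (limma adjusted p = 0.0669 and 0.0681) and exon 2 without dPPRrbcL replicate 1 (limma adjusted p = 0.0508), while the intron kept its call without each library in turn.

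The rpoC1 intron stood high among chloroplast introns. Of 24 introns tested, 5 were called higher and 11 lower in dPPRrbcL, with a median log2 change of -0.52, and the rpoC1 intron ranked 2, after an intron of ycf3, a photosystem I assembly gene. Of the 16 introns of protein-coding genes, 5 were called higher and 4 lower, with a median of 0.22. The intron over exon coverage of rpoC1 was 0.952 and 1.03 in dPPRrbcL, against 0.932 and 0.864 in WT. The groups did not overlap, and the means differed by 0.09 beside a pooled SD of 0.05 (exact permutation p = 0.333, the smallest possible). The ratio was taken over 14 introns of protein-coding genes, which include both copies of the ndhB and rpl2 introns and leave out those of rps12. Its median was 0.806 in dPPRrbcL and 1.04 in WT. Of these 14, 9 were lower in dPPRrbcL without overlap of the groups, and 2, those of rpoC1 and ycf3, were higher without overlap. In either direction, 78.6% of these 14 had no overlap of the groups. Both rps12 introns, left out of this ratio, had log2 changes of 0.14 and 0.39, against -0.97 and -1.09 over the exons of both rps12 entries. Intron coverage thus rose relative to exon coverage in rps12 as well. The rpoC1 ratio ranked 3 of 14 in dPPRrbcL and 10 of 14 in WT. Set against exon 1 alone, the ratio was 0.938 and 1.01 in dPPRrbcL, against 0.903 and 1.37 in WT, where the groups overlapped and the difference had the other sign. The groups also overlapped with 50 nt beside each splice site left out, at 0.969 and 1.05 in dPPRrbcL, against 0.978 and 0.845 in WT, and with median in place of mean coverage, at 0.892 and 0.961 in dPPRrbcL, against 0.70 and 1.0 in WT.

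At the splice borders printed above, coverage went on from exon to intron and back. In dPPRrbcL the last 20 nt of exon 1 had 227 and 216 reads per nucleotide and the first 20 nt of the intron 185 and 198, against 6.40 and 9.85 and then 6.40 and 8.15 in WT. The last 20 nt of the intron had 249.5 and 272 reads per nucleotide in dPPRrbcL, and the first 20 nt of exon 2 had 288 and 309, against 6.20 and 13.2 and then 8.15 and 19.7 in WT. The intron side thus had reads at both borders in every library. Coverage does not tell unspliced RNA from excised intron.

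**Figure D3:**
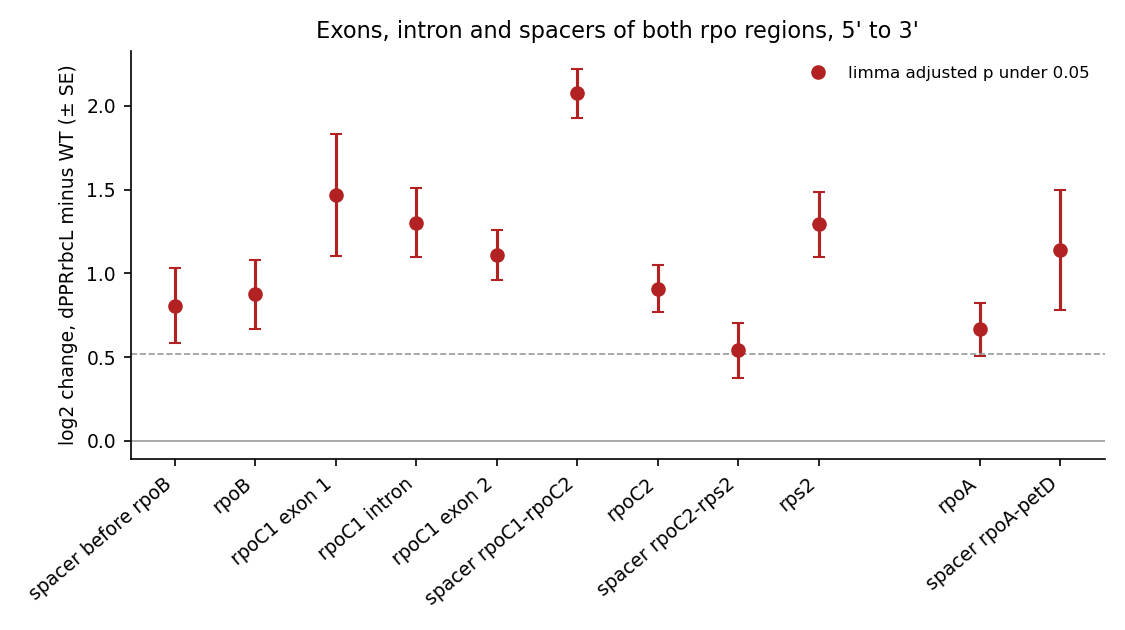
Log2 change with its SE, dPPRrbcL minus WT, of the exons, intron and spacers of the cluster, of rps2, and of rpoA with the spacer after it, each in the direction of transcription; every point shown passed a limma adjusted p of 0.05, and the dashed line is the median segment at 0.52. The spacer between rpoC1 and rpoC2 is highest at 2.07, and the spacer from rpoC2 to rps2 lies near the median segment at 0.54.

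Between the genes of the cluster, the spacer of 182 nt from rpoC1 to rpoC2 (Pltd:20069-20250) had a larger log2 change than any other tested segment of both regions. It had 183 and 168 reads per nucleotide in dPPRrbcL, against 2.70 and 4.09 in WT. Both WT values lay below those of the genes on either side, and the dPPRrbcL values lay between them. Both WT values were also below the minimum coverage of the test, which the spacer passed through dPPRrbcL. The spacer rose by a log2 change of 2.07 with an SE of 0.14 (limma adjusted p = 0.00131), rank 25 of 261 segments and 14 of 107 spacers, whose median was 0.64. Relative to the mean of rpoC1 and rpoC2, its coverage was 1.01 and 1.04 in dPPRrbcL, against 0.365 and 0.560 in WT. The spacer of 26 nt between rpoB and rpoC1 was too short for the test, and its coverage was 308 and 270.3 in dPPRrbcL, against 3.69 and 15.0 in WT.

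Outside the genes, coverage over the spacer upstream of rpoB was low as a whole and, in dPPRrbcL, higher next to the start codon. The spacer of 1043 nt between trnC and rpoB had 26.6 and 18.6 reads per nucleotide in dPPRrbcL, against 0.521 and 1.29 in WT. Relative to rpoB this was 0.158 and 0.116 in dPPRrbcL, against 0.0585 and 0.168 in WT, with overlap. Its last 100 nt before the rpoB start codon had 75.8 and 70.8 reads per nucleotide in dPPRrbcL, against 1.09 and 2.35 in WT. Relative to rpoB that was 0.449 and 0.439 in dPPRrbcL, against 0.123 and 0.307 in WT, without overlap (exact permutation p = 0.333, the smallest possible), and over the last 300 nt the groups overlapped. How often such ratios have no overlap elsewhere is not given here. The last 300 nt had 57.9 and 45.4 reads per nucleotide in dPPRrbcL, against 1.33 and 2.41 in WT. In WT, where reads were few, coverage thus did not rise from the last 300 nt to the last 100 nt. The whole spacer rose by a log2 change of 0.81 (limma adjusted p = 0.0337), a call that ended with a pseudocount of 10% (limma adjusted p = 0.148). trnC, the tRNA gene on the other strand upstream, had 17.8 and 19.04 reads per nucleotide in dPPRrbcL, against 0 and 2.00 in WT, and was below the filter. Downstream, coverage went on: the spacer from rpoC2 to rps2 had 197 and 208 reads per nucleotide in dPPRrbcL, against 12.9 and 13.4 in WT, a log2 change of 0.54 (limma adjusted p = 0.0424) that ended without either dPPRrbcL library. rps2, a ribosomal protein gene of the small subunit next to rpoC2, had 166 and 143 reads per nucleotide in dPPRrbcL, against 4.15 and 7.32 in WT, and rose by 1.29 (SE 0.18, limma adjusted p = 0.00586).

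Beyond the 3′ end of rpoA lies petD, a cytochrome b6f subunit gene on the plus strand. It had 1381 and 1318 reads per nucleotide in dPPRrbcL, against 54.8 and 66.9 in WT, several times the rpoA coverage in every library. The spacer between petD and rpoA had 113 and 93.2 reads per nucleotide in dPPRrbcL, against 5.35 and 2.89 in WT, with a log2 change of 1.14 (limma adjusted p = 0.0481) that was lost without either dPPRrbcL library. Since the coverage is not split by strand, reads of petD and of rpoA in this spacer cannot be told apart.

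The shape along each gene was far better defined in dPPRrbcL. Over bins of 50 nt, the profiles of dPPRrbcL replicates 1 and 2 had a Pearson's r of 0.98 in rpoA (19 bins), 0.95 in rpoB (64 bins), 0.88 in rpoC1 (40 bins) and 0.85 in rpoC2 (82 bins). The WT replicates had 0.71 in rpoA, 0.54 in rpoB, -0.25 in rpoC1 and 0.24 in rpoC2. These are descriptions, since neighbouring bins share reads and WT bins rest on few of them. For rpoC1 and rpoC2, a WT profile therefore gives little shape to compare with.

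**Figure D4:**
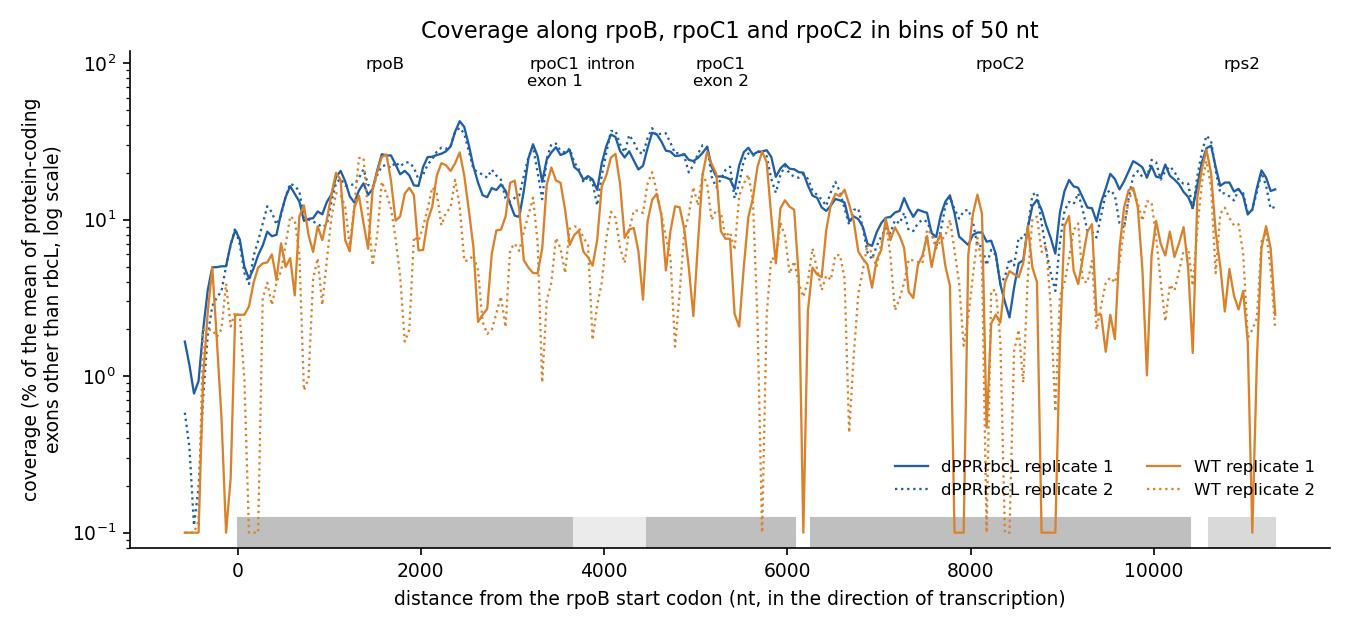
Coverage along rpoB, rpoC1 and rpoC2 in bins of 50 nt, as a percentage of the mean of protein-coding exons other than rbcL (log scale), against distance from the rpoB start codon in nt in the direction of transcription. Blue lines are dPPRrbcL replicates and orange lines WT replicates, values at or under 0.1% are drawn at 0.1%, and grey boxes mark genes; the blue lines follow each other, while the orange lines drop to the floor in several bins.

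rpoB was recovered least at its 5′ end. Its first 300 nt had 56.0 and 56.9 reads per nucleotide in dPPRrbcL, against 2.95 and 1.09 in WT, and its last 300 nt had 153 and 156 in dPPRrbcL, against 8.96 and 7.54 in WT. The 5′ to 3′ ratio was 0.367 and 0.365 in dPPRrbcL, against 0.329 and 0.145 in WT, so that all 4 libraries had the low start. The single position of highest coverage in rpoB stood 2447 and 2449 nt from the start codon in dPPRrbcL, against 1578 and 1336 nt in WT. In WT that highest coverage was only 24 and 27 reads. Over bins of 50 nt, WT replicate 1 was highest at 2401 to 2450 nt, as both dPPRrbcL replicates were. WT replicate 1 had 21.8 reads per nucleotide there, against 21.14 at 1601 to 1650 nt. WT replicate 2 was highest at 1351 to 1400 nt, with 25.12. The WT replicates thus did not share a highest bin.

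rpoA had the opposite slope. Its 5′ to 3′ ratio was 2.64 and 2.91 in dPPRrbcL, against 4.34 and 2.17 in WT, where the WT replicates lay on both sides of the dPPRrbcL values. By group mean its highest bin was the same in both groups, 251 to 300 nt from the start codon, while WT replicate 2 alone was highest at 301 to 350 nt. rpoC1 was level, with a ratio of 1.12 and 1.28 in dPPRrbcL, against 1.21 and 0.783 in WT.

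In rpoC2 the end ratios of the groups lay on either side of 1: the ratio was 0.722 and 0.761 in dPPRrbcL, against 1.23 and 1.08 in WT. Its 3′ end was thus above its 5′ end in both dPPRrbcL libraries and below it in both WT libraries, with an exact permutation p of 0.333, the smallest possible. Over ends of 100 nt the sign turned, with 0.938 and 0.848 in dPPRrbcL, against 0.617 and 0.786 in WT, and over ends of 500 nt the groups overlapped. Groups without overlap were common in this measure, at 71.9% of 32 genes, whose median ratio was 0.857 in dPPRrbcL and 0.906 in WT.

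**Figure D5:**
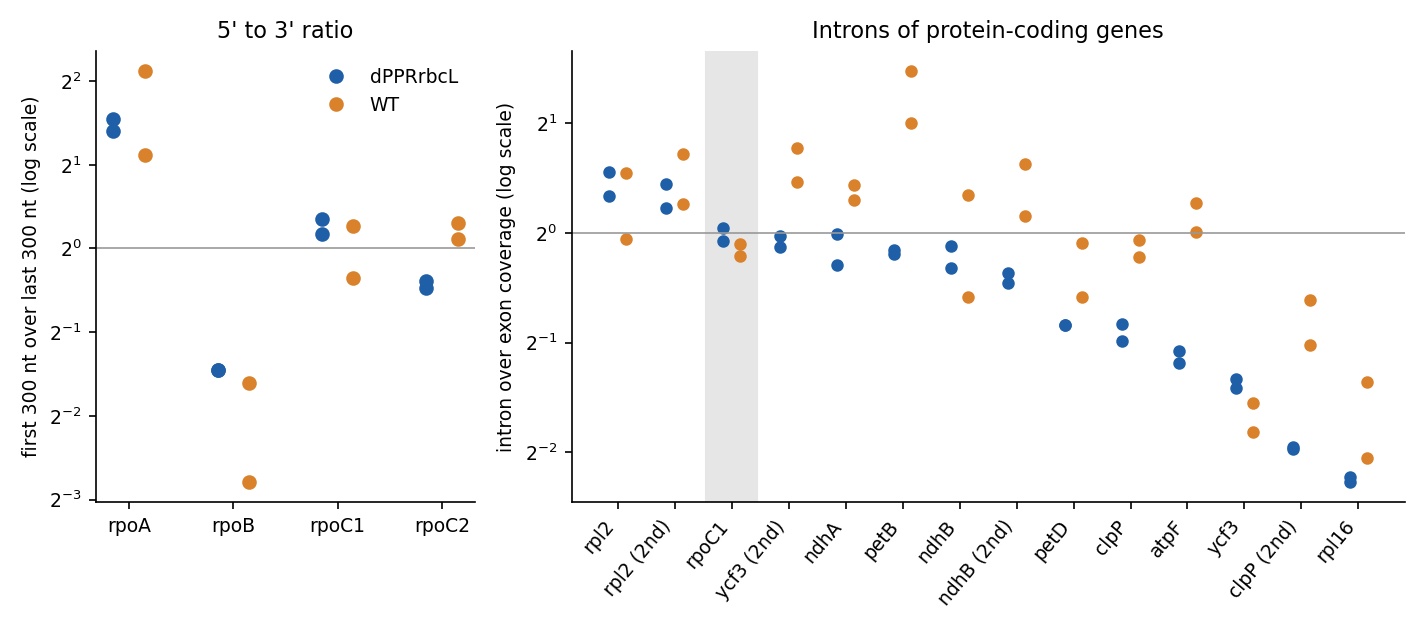
Left, coverage of the first 300 nt over the last 300 nt of each polymerase gene; right, intron over exon coverage of 14 introns of protein-coding genes, with rpoC1 shaded; both on log scales, with 1 point for each library and dPPRrbcL left of WT. The rpoC2 end ratio lies below 1 in dPPRrbcL and above 1 in WT. Of the 14 introns shown, which leave out those of rps12, rpoC1 is 1 of 2 whose dPPRrbcL points both lie above the WT points.

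The genes were also read in windows of 100 nt. The log2 change of the 112 windows within the 4 genes had a median of 1.08 and a range from -0.31 to 2.45, against a median of 0.53 over all 1372 windows tested. That background includes windows of rRNA and tRNA genes, such as rrn23S, whose log2 change as a gene was -3.42. It is thus not a background of protein-coding windows alone. limma called 39 of the 112 windows higher and 0 lower (56 higher and 0 lower at an unadjusted p under 0.05), against 27.6% of all windows called higher and 14.7% lower. By gene the calls were 14 of 28 windows in rpoC1, 14 of 42 in rpoC2, 8 of 32 in rpoB and 3 of 10 in rpoA, and outside rpoC1 these counts are near the background. Without dPPRrbcL replicate 1 or 2 limma called 0 of these windows (19 and 22 higher and 0 lower at an unadjusted p under 0.05). Without WT replicate 1 it called 94 higher and without WT replicate 2 it called 70 higher and 1 lower, and with the replicate number as a block it called 20.

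The window of largest log2 change in each gene is printed 5′ to 3′ on the minus strand where limma called it, which it did in rpoB, rpoC1 and rpoA, with the rpoB window of smallest change beside them for comparison. Capitals mark the longest run of bases that each shares with the 150 nt before the rbcL start codon, as a plain letter match on the transcribed strand.
rpoB highest (Pltd:23601-23700): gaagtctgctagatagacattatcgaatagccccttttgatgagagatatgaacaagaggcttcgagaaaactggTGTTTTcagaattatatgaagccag
rpoB lowest (Pltd:25201-25300): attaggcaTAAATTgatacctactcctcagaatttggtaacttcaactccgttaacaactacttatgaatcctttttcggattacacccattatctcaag
rpoC1 highest (Pltd:21601-21700): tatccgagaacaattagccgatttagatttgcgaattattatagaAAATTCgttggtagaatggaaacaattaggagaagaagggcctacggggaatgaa
rpoA highest (Pltd:78001-78100): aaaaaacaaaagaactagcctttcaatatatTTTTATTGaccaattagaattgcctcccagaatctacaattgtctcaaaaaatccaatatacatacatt

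The rpoB window had 144 and 173 reads per nucleotide in dPPRrbcL, against 1.64 and 2.54 in WT, a log2 change of 2.45 with an SE of 0.22 (limma adjusted p = 0.00707). The weakest rpoB window had 179.6 and 151 reads per nucleotide in dPPRrbcL, against 15.3 and 14.2 in WT, a log2 change of 0.10 with an SE of 0.22 (limma adjusted p = 0.734). In dPPRrbcL these rpoB windows had like coverage, and they parted in WT. Both were chosen by their log2 change and WT coverage was low, so this difference is not a result separate from the choice. The rpoC1 window, in exon 2, had 275 and 314 reads per nucleotide in dPPRrbcL, against 4.87 and 7.70 in WT, a log2 change of 2.05 with an SE of 0.22 (limma adjusted p = 0.00814). The rpoA window had 89.4 and 84.3 reads per nucleotide in dPPRrbcL, against 2.56 and 5.26 in WT, a log2 change of 1.01 with an SE of 0.26 (limma adjusted p = 0.0480). In rpoC2 the window of largest change (Pltd:18401-18500, log2 change 2.31) did not pass and is not printed, with 0 and 3.39 reads per nucleotide in WT (limma adjusted p = 0.0897). The shared runs were 6 nt in both rpoB windows and the rpoC1 window, a length found in 97.3% of 1805 windows within protein-coding genes, and 8 nt in the rpoA window, a length found in 30.4%.

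The genes nearest to the members of the cluster in level and change together were found by the root mean square difference of log2 scaled coverage over the 4 libraries. Nearest to rpoC2 was accD, a subunit gene of the plastid acetyl-CoA carboxylase, at a distance of 0.017, against a median over genes of 2.14. Nearest to rpoC1 was ndhE, a subunit gene of the NDH complex, at 0.042, and rpoB had no single nearest gene, with rpoC1 at 0.363, ndhH at 0.364 and rpl23 at 0.365. accD is itself 1 of the genes usually described as read mainly by NEP, while ndhE and ndhH are NDH genes, set below among those that PEP mainly reads.

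Of that NEP list outside the polymerase genes, accD, clpP and both copies of ycf2, limma called 3 of 4 higher and 0 lower, with a median log2 change of 0.36. accD had 117 and 101 reads per nucleotide in dPPRrbcL, against 5.12 and 5.37 in WT, and rose by 0.89 (SE 0.12, limma adjusted p = 0.00566), a call lost without either dPPRrbcL library. clpP, a protease subunit gene, had 505 and 493 reads per nucleotide in dPPRrbcL, against 43.5 and 50.7 in WT, with a log2 change of 0.03 (limma adjusted p = 0.781). The ycf2 copies share their sequence, and both lost their calls under several settings. The list thus spans a gene with a log2 change near that of rpoC2 and a gene with one below the median gene's.

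Among the genes that PEP mainly reads, those of the photosystems and electron transport had 14 of 26 called higher and 4 lower, with a median log2 change of 0.69. ATP synthase genes had 3 of 6 called higher and 0 lower (median 0.62), and NDH genes 5 of 12 higher and 1 lower (median 0.27). Ribosomal protein genes had 13 of 24 called higher and 3 lower, with a median of 1.00. Over all 84 protein-coding genes tested, 49 were called higher and 8 lower with a median of 0.67, beside a median of 0.89 for the 4 polymerase genes.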

How the data were processed

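RNA recovered by HA immunoprecipitation from stroma was sequenced in 2 dPPRrbcL and 2 WT libraries, each from 50 ng of RNA per the labels. The authors deposited for each library the coverage of every chloroplast position, a signal in reads per nucleotide packed into 1 field (recorded as another unit), in whole numbers, and neither a header nor a label names a normalization. The mapper, the build and the use of strand are not given in the sources used here. Each file held 154478 positions, the length of the TAIR10.1 chloroplast sequence, whose RefSeq annotation and sequence were used. No number of reads was derived, so no counting interval is given.

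Mean coverage over exons was divided by that of protein-coding exons other than rbcL, which leaves out the rRNA. A pseudocount of 1% of that mean (9.79 and 9.00 reads per nucleotide in dPPRrbcL, 0.810 and 1.01 in WT) was added and log2 taken, so changes of low genes are understated. Features with a mean coverage over all libraries of at least 10 were tested with limma 3.58.1 (R 4.3.3), without covariate. The tests were run over genes, over segments of at least 30 nt, and over windows of 100 nt. This minimum was not asked of each group. Both WT libraries were below it over rpoB, rpoC1, rpoC2, the rpoC1 intron and the spacer between rpoC1 and rpoC2. These features thus passed the filter through their dPPRrbcL coverage. Ratios within a library used exact two-sided permutation tests. Only the limma step was tried on simulated log2 values, over genes and over windows, drawn with a common spread for all libraries. Other steps used Python 3.11.15, numpy 2.4.6, pandas 2.3.3 and scipy 1.17.1.

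The named features were the members, the exons and intron of rpoC1, adjoining genes, the nearest genes by root mean square distance, rbcL, and the windows of highest and lowest change in each member. A gene adjoining rpoA is not reported here. Members and gene lists were chosen with earlier results of these data known. Alternatives varied the scaling, pseudocount, filter, window and end lengths, the replicate block and each library. The replicates were not copies of each other, with equal values at only 2.47% of positions between dPPRrbcL replicates and 16.3% between WT replicates.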

Additional observations from a re-analysis of the deposited data

How the results depend on the processing

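With 2 libraries in each group and WT coverage of 5.03 to 12.8 reads per nucleotide on the members, WT depth limits every value. Of 544 alternative values, 406 kept both direction and side of the threshold or, for counts and untested values, stayed within 1.5 times or 1 SD of the main value. The log2 changes of rpoA and rpoB did not pass under median-ratio scaling (0.22 and 0.43) or with rbcL in the scaling mean (0.33 and 0.54). With 1 library left out, the log2 change ran from 0.53 to 0.80 for rpoA, 0.63 to 1.12 for rpoB, 0.99 to 1.36 for rpoC1 and 0.82 to 1.00 for rpoC2, where a lone library is assumed to vary like the other group. With a minimum coverage of 100, rpoB and rpoC2 were not tested. The rpoC1 intron and the spacer between rpoC1 and rpoC2 kept their calls in every setting run. The cause of the changes below was not tested.

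Genes called higher numbered 108 scaled to the library total (also with a pseudocount of 0.1%), 101 with no pseudocount at that scaling and 34 by the median ratio. Genes called lower by limma numbered 0 in those library-total settings (0 also at an unadjusted p under 0.05) and 15 scaled to coverage outside rRNA and tRNA genes. With 1 library left out, 24 to 70 genes were higher and 12 to 27 lower. Segments numbered 256 higher and 0 lower (0 unadjusted) by limma scaled to the library total, and 65 to 152 higher and 34 to 76 lower with 1 library left out. The share of higher among called genes was 70.5% here, 100% by the library total, 83.5% without rRNA and tRNA, 59.2% with rbcL and 50.7% by the median ratio. Windows called higher numbered 1299 by the library total, 243 by the median ratio, 663 outside rRNA and tRNA genes, 675 at 50 nt and 224 at 200 nt. Windows called lower numbered 16 by the library total, 305 by the median ratio, 369 at 50 nt and 114 at 200 nt. With 1 library left out they ran from 0 to 701 higher and 0 to 308 lower by limma (226 higher and 130 lower unadjusted without dPPRrbcL replicate 1, 224 and 134 without replicate 2). Windows within the polymerase genes called higher numbered 112 by the library total, 22 by the median ratio, 81 outside rRNA and tRNA genes and 69 at 50 nt, and with 1 library left out 0 to 94 were higher and 0 to 1 lower.

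Whether same-numbered libraries were handled together is not given in the sources used here. Their deviations correlated at -0.18 over genes, -0.05 over segments and -0.06 over windows, which 2 libraries in each group cannot turn into an answer. With the replicate block, 50 genes were higher and 19 lower, 112 segments higher and 53 lower, 239 windows higher and 126 lower, 20 of those higher within the polymerase genes. limma adjusted p with the block was 0.0460 for rpoA, 0.0435 for rpoB, 0.0187 for rpoC1 and 0.0174 for rpoC2. The crossed pairing, added after seeing the data together with the settings without a pseudocount and with 0.1% at the library total, gave 56 genes higher and 19 lower.

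The difference in the polymerase share was 1.16 percentage points without rbcL in the denominator. The intron over exon difference was -0.16 against exon 1 alone. End-ratio differences for rpoB were -0.0744 at 100 nt, 0.0106 at 500 nt and 0.32 by medians, and for rpoC2 0.19 at 100 nt and -0.26 by medians. With 1 library left out they ran from -1.56 to 0.60 for rpoA and from -0.00514 to 0.42 for rpoC1. Ends of 500 nt could not be used for rpoA. Among other genes, the log2 change reversed for petN (-0.43 by the median ratio, -0.31 with rbcL in the scaling, -0.043 by median coverage, -0.12 to 0.19 with 1 library left out), clpP (-0.43, -0.31 and, with introns, -0.46, and -0.0144 to 0.0819 with 1 library left out), ycf2 (-0.00102 by the median ratio) and its other copy (-0.0744).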
